A study of Homo sapiens with 39 samples.

Results

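The drug efflux ABC transporters described here are 8 of the 63187 genes in the count table: ABCB1, ABCG2, ABCC1, ABCC2, ABCC3, ABCC4, ABCC5 and ABCC10. They were picked by name, as ATP-driven pumps known for carrying drugs out of cells. The rule uses no measured value, but the members were chosen with earlier results of these data known. RNA-seq was done in C4-2B, a derivative of the prostate cancer line LNCaP that grows without androgen and was kept in medium with fetal bovine serum, so all groups come from 1 cell line. In the panel (21 libraries), 7 groups were treated for 5 days. These received the vehicle DMSO, 1 ARPi (abiraterone acetate at 5 µM or enzalutamide at 20 µM), 1 PARPi (olaparib at 1 µM or talazoparib at 10 nM), or a combination at the same doses, which joined abiraterone acetate to olaparib and enzalutamide to talazoparib. In the time course (18 libraries), 6 groups received DMSO, olaparib at 1 µM or olaparib at 5 µM for 1 or 5 days. Each of the 13 groups had 3 libraries, lettered A to C in the panel and numbered 1 to 3 in the time course. Abiraterone blocks androgen synthesis and enzalutamide blocks the androgen receptor, and ARPi stands for such androgen receptor pathway inhibitors. PARPi are inhibitors of PARP, an enzyme of DNA repair.

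ABC transporters bind and hydrolyze ATP to move substrates across membranes. ABCB1 (P-glycoprotein) and ABCG2 (BCRP) pump out a wide range of uncharged or weakly charged drugs, and ABCB1 is the pump best known for exporting olaparib. The ABCC members are the multidrug resistance proteins (MRPs), which export organic anions, glutathione and glucuronide conjugates, cyclic nucleotides and some drugs, and ABCC4 (MRP4) is known for its high level in prostate epithelium.

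The estimated counts per library added up to 26932205 to 49833473 in the panel and 34214001 to 44893664 in the time course. All 10 markers of prostate luminal epithelium were present with medians over the libraries of 2701 to 42363 counts, and 9 of 15 markers of other cell types had a median of at most 3 counts. As checks of the treatments, KLK3, an androgen receptor target, fell by 1.58 on the log2 scale under abiraterone and by 2.25 under enzalutamide. TMPRSS2, another such target, had log2 fold changes of -2.45 and -2.80. CDKN1A, a p53 target, rose under olaparib (log2 fold change 2.18) and under talazoparib (1.98). The checks were not specific to a drug class, since CDKN1A also rose under abiraterone (0.82) and enzalutamide (0.18), and under olaparib and talazoparib KLK3 (0.18 and 0.21) and TMPRSS2 (0.73 and 0.77) rose. The labels do not say that the 3 libraries of a group came from separate cultures, so p-values measure the spread between these libraries, which may be technical.

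The stretches of 250 bases just upstream of the RefSeq start site are shown for ABCC4, which had the highest level and fell most with ARPi, for ABCC5 and ABCC10, which rose with olaparib, and for ABCB1, which was close to 0 throughout. They are RefSeq sequences of build GRCh38.p14, and a RefSeq window was at hand for 6 of the 8 members, with ABCC1 and ABCC3 not among them. For each gene, only the window nearest the outer 5' end of the GENCODE gene was searched, and other start sites were not. Capitals mark matches, on either strand, to the CCAAT box (CCAAT), the GC box (GGGCGG), the androgen receptor half-site (AGAACA), the E-box (CACGTG), the NRF2 core (TGACNNNGC) and the TATA box (TATAAA).
ABCC4, chr13:95301452-95301701, minus strand: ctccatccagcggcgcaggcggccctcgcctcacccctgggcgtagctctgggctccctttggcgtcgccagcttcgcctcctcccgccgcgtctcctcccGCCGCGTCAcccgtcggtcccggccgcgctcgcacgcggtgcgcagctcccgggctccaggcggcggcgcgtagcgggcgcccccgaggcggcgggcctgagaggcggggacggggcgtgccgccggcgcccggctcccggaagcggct
ABCC5, chr3:184017885-184018134, minus strand: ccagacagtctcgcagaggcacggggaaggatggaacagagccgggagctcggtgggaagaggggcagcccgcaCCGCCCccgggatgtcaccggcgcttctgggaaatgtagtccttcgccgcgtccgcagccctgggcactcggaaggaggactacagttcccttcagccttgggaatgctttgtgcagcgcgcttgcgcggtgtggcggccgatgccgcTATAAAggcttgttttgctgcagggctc
ABCC10, chr6:43427291-43427540, plus strand: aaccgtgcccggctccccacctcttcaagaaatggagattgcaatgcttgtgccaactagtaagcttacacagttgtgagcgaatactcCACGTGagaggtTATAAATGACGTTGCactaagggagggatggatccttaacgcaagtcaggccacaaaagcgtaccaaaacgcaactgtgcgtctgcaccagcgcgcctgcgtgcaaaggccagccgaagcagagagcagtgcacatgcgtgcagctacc
ABCB1, chr7:87713296-87713545, minus strand: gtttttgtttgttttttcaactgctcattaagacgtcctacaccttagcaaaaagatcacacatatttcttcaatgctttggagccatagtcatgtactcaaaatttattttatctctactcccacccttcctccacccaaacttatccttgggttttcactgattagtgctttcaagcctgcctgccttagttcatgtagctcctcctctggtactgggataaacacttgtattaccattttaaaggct
The ABCC4 window held 80.4% G and C, against a median of 58% over 35116 windows, and its single match was an NRF2 core that starts at position -149 from the start site. The ABCC5 window (64.8% G and C) held a GC box at -176 and a TATA box at -28. The ABCC10 window (53.6%) held an E-box at -161, a TATA box at -149 and an NRF2 core at -143, and the TATA match ends next to the first base of the NRF2 match. The ABCB1 window (39.2%) and the ABCG2 window (40.0%) held none of these motifs, and the ABCC2 window (45.6%) held a TATA box at -236. No androgen receptor half-site was in any of the 6 windows, and 12.4% of all windows held one. The shares for the other motifs were 32.0% for the CCAAT box, 42.6% for the GC box, 6.35% for the E-box, 10.9% for the NRF2 core and 10.7% for the TATA box. For the 4 genes shown, RefSeq and the GENCODE gene whose coordinates are given with the levels do not start at the same base. The RefSeq starts of ABCC10 (43427541), ABCC5 (184017884), ABCC4 (95301451) and ABCB1 (87713295) lie inside the GENCODE genes. The 3 ABCC10 matches and the TATA match of ABCC5 are therefore inside those genes, and the GC box of ABCC5 and the NRF2 match of ABCC4 are outside. A match only describes these letters, and a window without a match does not describe other start sites of its gene.

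In the DMSO libraries of the panel, ABCC4 (ENSG00000125257.16, GRCh38 chromosome 13 from 95019835 to 95301475, minus strand) was the most abundant member per length. Its level was 150.0 ± 2.77 CPM per kb of its canonical transcript (SD, n = 3), where CPM is the count relative to the TMM-scaled size of the library. ABCC1 (ENSG00000103222.20, chromosome 16 from 15949138 to 16143257, plus strand), which exports glutathione and its conjugates, had 38 ± 0.63 CPM per kb. ABCC5 (ENSG00000114770.17, chromosome 3 from 183919934 to 184017939, minus strand), an exporter of cyclic nucleotides, had 7.51 ± 0.45 CPM per kb. ABCC10 (ENSG00000124574.15, chromosome 6 from 43427366 to 43450427, plus strand), an exporter known for taxanes, had 2.33 ± 0.20 CPM per kb. ABCG2 (ENSG00000118777.12, chromosome 4 from 88090150 to 88231628, minus strand) had 0.565 ± 0.084 CPM per kb. The ranges of the 3 DMSO libraries of these 5 genes did not overlap, and ABCC4 held 75.6% of the summed per-kb level of the 8 members, with ABCC1 at 19.2%.

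**Figure D1:**
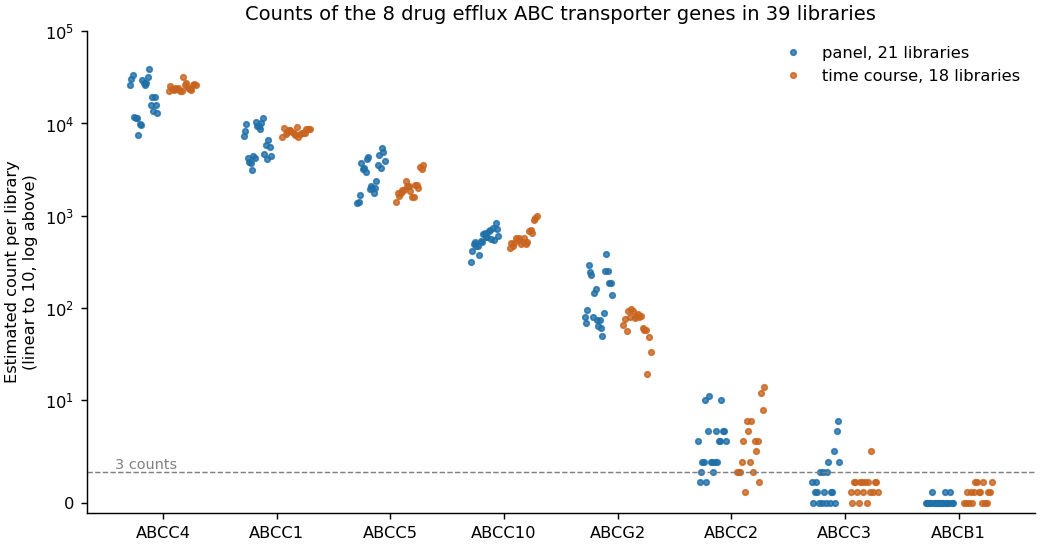
Estimated counts of each transporter gene in every library (vertical axis, linear up to 10 and logarithmic above), with 21 panel libraries in blue and 18 time course libraries in orange. ABCC4 had 7510 to 38942 counts per library, while ABCB1 had at most 2 and ABCC3 at most 8; the dashed line marks 3 counts, and counts are not corrected for transcript length.

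ABCB1 (ENSG00000085563.15, chromosome 7 from 87503017 to 87713323, minus strand), the efflux pump that resistance to PARPi is most often tied to, was barely detected. It had no count in 25 of the 39 libraries and 18 counts in all. With DMSO in the panel it had 0, 0 and 0 counts, with olaparib 0, 0 and 0, and with talazoparib 0, 0 and 1. On day 1 of the time course it had 0, 0 and 1 counts with DMSO, 0, 1 and 0 with olaparib at 1 µM and 1, 2 and 2 with olaparib at 5 µM. At day 5 the counts were 1, 1 and 0 with DMSO, 2, 0 and 0 with olaparib at 1 µM and 1, 1 and 2 with olaparib at 5 µM. Every library was thus at or under 3 counts, the limit that a count of 0 allows, which corresponds to 0.060 to 0.109 CPM, and covers counting error only. No change of ABCB1 was detected in any comparison, and a small change could not be detected at this depth. RUNDC3B, a gene on the opposite strand that overlaps ABCB1, had 3 to 19 counts.

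ABCC3 (ENSG00000108846.16, chromosome 17 from 50634777 to 50692253, plus strand), a basolateral exporter of glucuronides and bile salts, had 73 counts over the 39 libraries. Its highest group was enzalutamide with talazoparib, with 7, 8 and 4 counts against 2, 0 and 1 with DMSO. ABCC2 (ENSG00000023839.12, chromosome 10 from 99782640 to 99852594, plus strand), the apical conjugate exporter known from the bile canaliculus, had 1 to 14 counts per library. At day 5 it had 12, 9 and 14 counts with olaparib at 5 µM, 5, 6 and 2 with olaparib at 1 µM and 8, 3 and 6 with DMSO, so that the high-dose libraries did not overlap with the others. ABCB1, ABCC2 and ABCC3 did not pass the filter on low counts (filterByExpr of edgeR), and the other 5 passed it in both experiments. Where the filter was left off, the log2 fold change of ABCC2 at day 5 was 1.45 ± 0.55 (SE) between 5 and 1 µM (adjusted p = 0.0361, edgeR) and 1.22 ± 0.53 between 5 µM and DMSO (adjusted p = 0.0615, edgeR). For ABCC3 in enzalutamide with talazoparib it was 2.23 ± 1.03 (adjusted p = 0.0908, edgeR). Each gene was highest in the group named here, and a p-value for a group picked that way is not a fair test. ABCC2 and ABCC3 had at most 14 and 8 counts in a library.

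Both ARPi lowered the prevailing transporters ABCC4 and ABCC1 and raised ABCC5. ABCG2 rose with abiraterone, while its call with enzalutamide rested on single libraries. In the DMSO libraries, ABCC4 had 886, 890 and 860 CPM. It had 342, 360 and 354 CPM with abiraterone and 250, 233 and 232 CPM with enzalutamide. All libraries of each ARPi thus lay below all DMSO libraries, at 40.1% and 27.1% of the DMSO mean. The log2 fold change was -1.32 ± 0.028 (SE) for abiraterone (adjusted p = 9.90e-30) and -1.88 ± 0.028 for enzalutamide (adjusted p = 3.41e-34), by the quasi-likelihood test of edgeR with Benjamini-Hochberg adjustment. In bulk RNA, fewer cells with a transcript and less of it per cell cannot be told apart.

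ABCC1 had 248, 243 and 251 CPM with DMSO. With abiraterone it had 121, 121 and 114 CPM, and with enzalutamide 104, 105 and 101 CPM, all far below DMSO. Its log2 fold changes were -1.06 ± 0.029 and -1.26 ± 0.029 (adjusted p = 2.81e-26 and 1.44e-28, edgeR).

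ABCC5 moved the other way. It had 46.5, 41.4 and 42.6 CPM with DMSO, 109, 103 and 100 CPM with abiraterone and 99.8, 97.5 and 103 CPM with enzalutamide. These are 2.39-fold and 2.30-fold rises, with log2 fold changes of 1.26 ± 0.046 and 1.20 ± 0.046 (adjusted p = 7.09e-21 and 1.87e-20, edgeR). Both ARPi groups were clear of DMSO and overlapped with each other.

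For ABCG2, the BCRP pump, the ARPi differed. The DMSO libraries had 80, 69 and 95 counts (2.72, 2.01 and 2.41 CPM). With abiraterone the counts were 289, 245 and 228 (8.40, 7.78 and 7.02 CPM), and with enzalutamide 79, 145 and 160 (2.63, 3.42 and 3.83 CPM). The abiraterone libraries lay above all others of both groups, while the lowest enzalutamide library lay within the DMSO range. ABCG2 was 3.26-fold higher with abiraterone, with a log2 fold change of 1.71 ± 0.15 (adjusted p = 2.77e-12, edgeR). With enzalutamide the log2 fold change was 0.49 ± 0.15 (adjusted p = 0.00698, edgeR), and it fell short of the threshold without DMSO replicate B (0.38, adjusted p = 0.0627) or enzalutamide replicate C (0.36, adjusted p = 0.0749). Enzalutamide and abiraterone, at their given doses, differed by a log2 fold change of -1.22 ± 0.14 for ABCG2 (adjusted p = 2.64e-08, edgeR).

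ABCC10 had 10.6, 12.1 and 12.5 CPM with DMSO, 15.3, 14.9 and 14.6 CPM with abiraterone and 12.6, 12.7 and 12.5 CPM with enzalutamide. The abiraterone libraries were all above DMSO, and those with enzalutamide lay just above its highest library. Its log2 fold change was 0.34 ± 0.070 with abiraterone (adjusted p = 9.52e-05, edgeR) and 0.094 ± 0.070 with enzalutamide (adjusted p = 0.271, edgeR).

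Of the 5 members tested, 5 passed an adjusted p of 0.05 with abiraterone (3 higher, 2 lower), where 52.9% of all genes tested did, and 4 with enzalutamide (2 higher, 2 lower), where 53.3% did. Between both ARPi, 4 of 5 members passed, all lower with enzalutamide, against 19.8% of all genes (1822 higher, 1872 lower). The differences were -0.56 for ABCC4, -0.20 for ABCC1 and -0.25 for ABCC10 on the log2 scale, next to that of ABCG2. ABCC5 had -0.055 ± 0.043 (adjusted p = 0.418, edgeR). All comparisons against DMSO in the panel share the same 3 DMSO libraries.

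The summed per-kb level of the 8 members was 198 CPM per kb with DMSO, 101 with abiraterone and 77.2 with enzalutamide. ABCC4 held 59.4% of that sum with abiraterone and 52.7% with enzalutamide. The share of ABCC5 went from 3.79% with DMSO to 17.7% and 22.4%. ABCC1 kept a share of 18.1% and 20.6%, and ABCG2 stayed at or under 1.82%. With both ARPi, PTPRC, a leukocyte marker, had 9 to 29 counts against 0 to 3 with DMSO, while CD3E was at 0 and the summed level of the 3 leukocyte markers was 3.00 to 4.21 CPM against 4.34 to 7.04 CPM. The 4 stromal markers summed to 17.6 to 20.4 CPM against 10.4 to 13.6 CPM with DMSO, nearly all from COL1A1, and 3 of the 4 had a median of at most 3 counts in every group. The 3 endothelial markers summed to 21.5 to 22.1 CPM with abiraterone, 11.9 to 13.1 CPM with enzalutamide and 13.8 to 16.3 CPM with DMSO. The 3 basal markers summed to 0 to 0.296 CPM with abiraterone, 0.049 to 0.136 CPM with enzalutamide and 0.229 to 0.774 CPM with DMSO. Marker sums, here and below, are CPM of the total count of a library, without TMM scaling. The part of these markers in the transporter results was not tested.

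**Figure D2:**
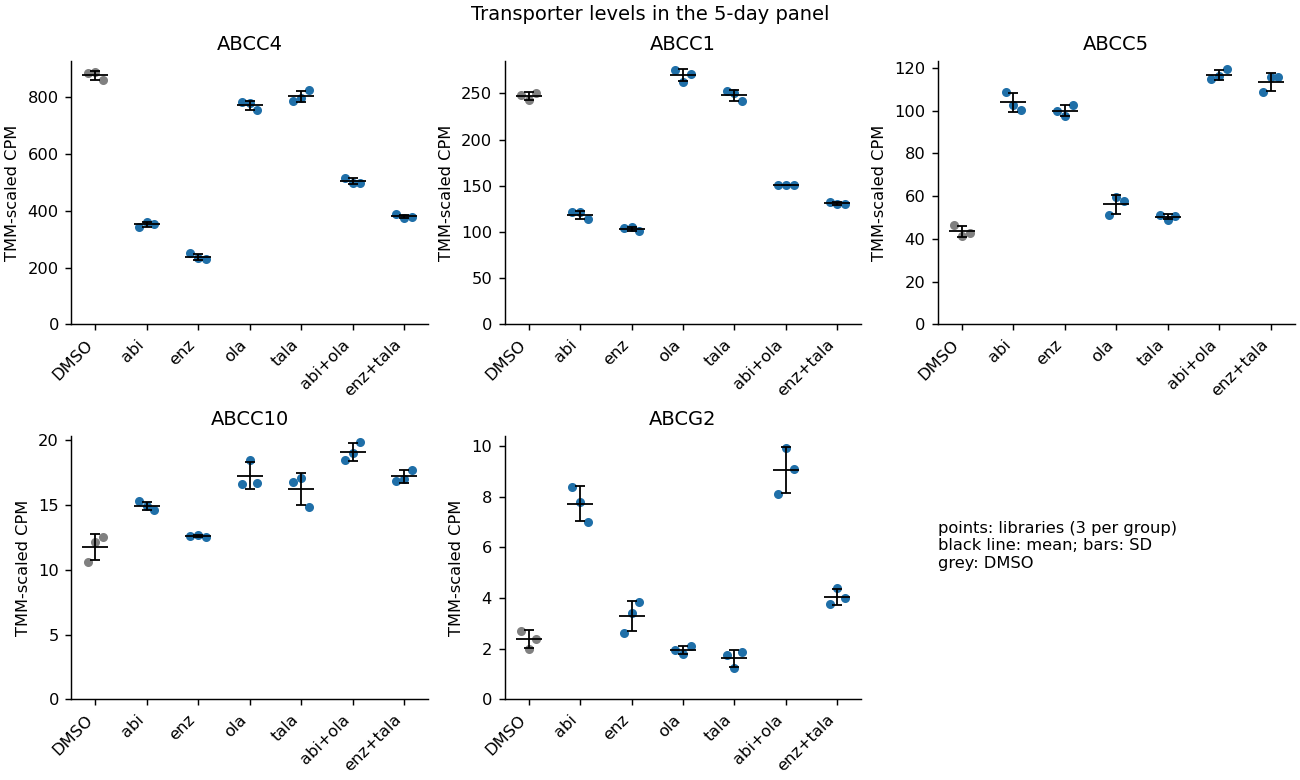
TMM-scaled CPM of the 5 tested transporters in the panel, with 1 point per library, a black line for the mean of 3 libraries and bars for the SD. ABCC4 and ABCC1 were lower in all 12 libraries with an ARPi than in the 9 without one, and ABCC5 was higher in those 12.

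With PARPi alone, ABCC4, ABCC1 and ABCC5 stayed closer to DMSO. With olaparib at 1 µM, ABCC4 had 783, 780 and 754 CPM, all below DMSO, and a log2 fold change of -0.19 ± 0.027 (adjusted p = 9.48e-07, edgeR). ABCC1 had 276, 263 and 270 CPM, all above DMSO, and a log2 fold change of 0.13 ± 0.028 (adjusted p = 0.000455, edgeR). ABCC5 had 51.3, 59.4 and 57.7 CPM and ABCC10 had 16.6, 18.4 and 16.7 CPM. These libraries were likewise all above DMSO, with log2 fold changes of 0.37 ± 0.048 for ABCC5 and 0.55 ± 0.068 for ABCC10 (adjusted p = 1.91e-07 and 4.74e-08, edgeR). ABCG2 had 1.95, 1.78 and 2.12 CPM, a range that overlapped with that of the vehicle, for a log2 fold change of -0.28 ± 0.16 (adjusted p = 0.185, edgeR). So 4 of 5 members passed the threshold with olaparib (3 higher, 1 lower), beside 35.6% of all genes.

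Talazoparib at 10 nM gave log2 fold changes of -0.13 ± 0.027 for ABCC4, 0.21 ± 0.048 for ABCC5 and 0.46 ± 0.068 for ABCC10 (adjusted p = 0.000306, 0.000618 and 1.67e-06, edgeR). Its libraries had 788, 799 and 826 CPM for ABCC4, 51.2, 49.0 and 50.9 CPM for ABCC5 and 16.7, 17.1 and 14.8 CPM for ABCC10, none of which overlapped with DMSO. ABCC1 had 252, 250 and 241 CPM and a log2 fold change of 0.0040 ± 0.028 (adjusted p = 0.934, edgeR). ABCG2 had 61, 50 and 88 counts (1.75, 1.24 and 1.87 CPM) and fell by 0.55 on the log2 scale (SE 0.16, adjusted p = 0.00849, edgeR), a call lost without DMSO replicate A (-0.45, adjusted p = 0.0532) or talazoparib replicate B (-0.40, adjusted p = 0.0796). With talazoparib, 4 of 5 members passed (2 higher, 2 lower), beside 33.8% of all genes. The doses of olaparib and talazoparib differ, so their values stand side by side without a test between them. CD68, a leukocyte marker that other cells also express, had 454 to 642 counts with PARPi and 170 to 229 with DMSO. The 3 leukocyte markers summed to 13.7 to 15.1 CPM with olaparib and 12.6 to 12.9 CPM with talazoparib against 4.34 to 7.04 CPM with DMSO, while CD3E was at 0 in these groups and PTPRC at most at 3 counts. The 3 basal markers summed to 28 to 63 counts with olaparib, 39 to 45 with talazoparib and 8 to 23 with DMSO, with 2 of the 3 at a median of at most 3 counts in each group. The stromal markers summed to 14.5 to 15.3 CPM with olaparib, against 10.4 to 13.6 CPM with DMSO. The part of these markers in the PARPi results was not tested.

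**Figure D3:**
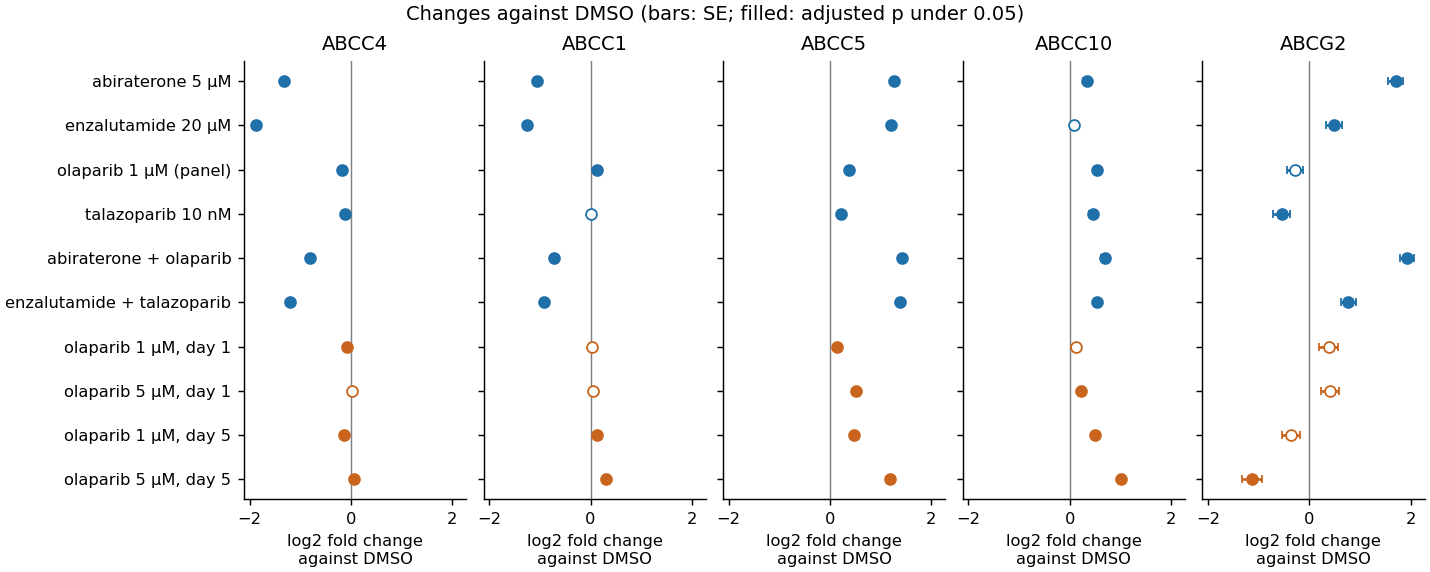
Log2 fold change of each tested transporter against DMSO of the same experiment and day, with bars for the SE and filled points for an adjusted p under 0.05 (edgeR). ABCC4 and ABCC1 lie left of 0 in the 4 comparisons with an ARPi and ABCC5 lies right of 0 in all 10, while the value of ABCC4 for olaparib at 5 µM and day 5 (0.059) changes sign under total count scaling (-0.024).

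Adding a PARPi to an ARPi brought ABCC4 and ABCC1 part of the way back toward DMSO. ABCC4 had 516, 499 and 497 CPM with abiraterone and olaparib, above the 342 to 360 CPM of abiraterone alone and below DMSO. It had 388, 376 and 377 CPM with enzalutamide and talazoparib, above the 232 to 250 CPM of enzalutamide alone. The log2 fold change from the ARPi to its combination was 0.52 ± 0.028 after abiraterone and 0.68 ± 0.028 after enzalutamide (adjusted p = 2.33e-16 and 9.38e-20, edgeR). ABCC1 had 151, 151 and 151 CPM with abiraterone and olaparib and 133, 130 and 130 CPM with enzalutamide and talazoparib, and its log2 fold change from the ARPi was 0.34 ± 0.029 in both pairs (adjusted p = 2.15e-11 and 1.52e-11, edgeR). All of these libraries lay between those of the ARPi and those of DMSO. ABCC4 was the member whose 7 groups of the panel all had separate ranges, in the order DMSO, talazoparib, olaparib, abiraterone with olaparib, enzalutamide with talazoparib, abiraterone, enzalutamide.

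The same step raised ABCC5 and ABCC10, which were already at or above DMSO with the ARPi. ABCC5 had 115, 116 and 119 CPM with abiraterone and olaparib and 109, 116 and 116 CPM with enzalutamide and talazoparib, and its log2 fold changes from the ARPi were 0.17 ± 0.043 and 0.18 ± 0.042 (adjusted p = 0.00286 and 0.00105, edgeR). ABCC10 had 18.4, 19.0 and 19.8 CPM and 16.8, 17 and 17.7 CPM, with 0.35 ± 0.067 and 0.45 ± 0.066 (adjusted p = 8.77e-05 and 1.58e-06, edgeR). ABCG2 had 8.11, 9.93 and 9.10 CPM with abiraterone and olaparib, its highest group of the panel, which overlapped with abiraterone alone. Its log2 fold changes from the ARPi were 0.23 ± 0.13 and 0.29 ± 0.14 (adjusted p = 0.205 and 0.122, edgeR). From each ARPi to its combination, 4 of 5 members were higher and none lower, beside 29.2% of all genes called for abiraterone and 34.4% for enzalutamide. Those shares count both directions: 2691 genes were higher and 2745 lower for abiraterone, and 3077 higher and 3337 lower for enzalutamide. Against DMSO, all 5 members passed with either combination (3 higher, 2 lower), beside 62.2% of all genes for abiraterone with olaparib and 62.4% for enzalutamide with talazoparib. ABCC5 was then 2.69-fold and 2.61-fold above DMSO, and ABCG2 3.82-fold and 1.71-fold. In both combinations PTPRC had 16 to 47 counts, CD3E was at 0 and CD68 had 148 to 255 counts, and the 3 leukocyte markers summed to 5.29 to 7.78 CPM, against 4.34 to 7.04 CPM for DMSO. The stromal markers summed to 20.8 to 22.6 CPM. The endothelial markers summed to 20.7 to 22.8 CPM in the abiraterone pair and 15.3 to 16.2 CPM in the enzalutamide pair. The basal markers summed to 0.164 to 0.334 CPM in the abiraterone pair and 0.060 to 0.101 CPM in the enzalutamide pair. Their sum with DMSO was 0.229 to 0.774 CPM. The part of these markers in the combination results was not tested.

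An interaction term tested whether a combination departed from the sum of its agents on the log2 scale. For ABCC4 the sum of abiraterone and olaparib was -1.50 and the combination had -0.80, a departure of 0.70 ± 0.039 (adjusted p = 2.78e-15, edgeR). For enzalutamide and talazoparib the sum was -2.01 and the combination had -1.21, a departure of 0.80 ± 0.039 (adjusted p = 2.00e-16, edgeR). The fall of ABCC4 in both combinations was thus smaller than the sum, although each PARPi alone lowered ABCC4. ABCC1 departed by 0.22 ± 0.040 and 0.34 ± 0.040 (adjusted p = 0.000263 and 3.02e-07, edgeR). ABCG2 had a sum of -0.059 for enzalutamide and talazoparib and a combination of 0.77, a departure of 0.83 ± 0.22 (adjusted p = 0.00830, edgeR), and for abiraterone and olaparib the departure was 0.51 ± 0.21 (adjusted p = 0.107, edgeR). ABCC5 departed by -0.20 ± 0.064 for abiraterone and olaparib (adjusted p = 0.0350, edgeR), a call lost in 10 alternatives, 7 of which leave out 1 library, and by -0.034 ± 0.063 for enzalutamide and talazoparib (adjusted p = 0.807, edgeR). For ABCC10 the departures were -0.19 ± 0.096 and -0.0086 ± 0.095 (adjusted p = 0.196 and 0.973, edgeR). In each pair 3 of 5 members passed, beside 12.8% of all genes in the abiraterone pair and 12.6% in the enzalutamide pair.

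**Figure D4:**
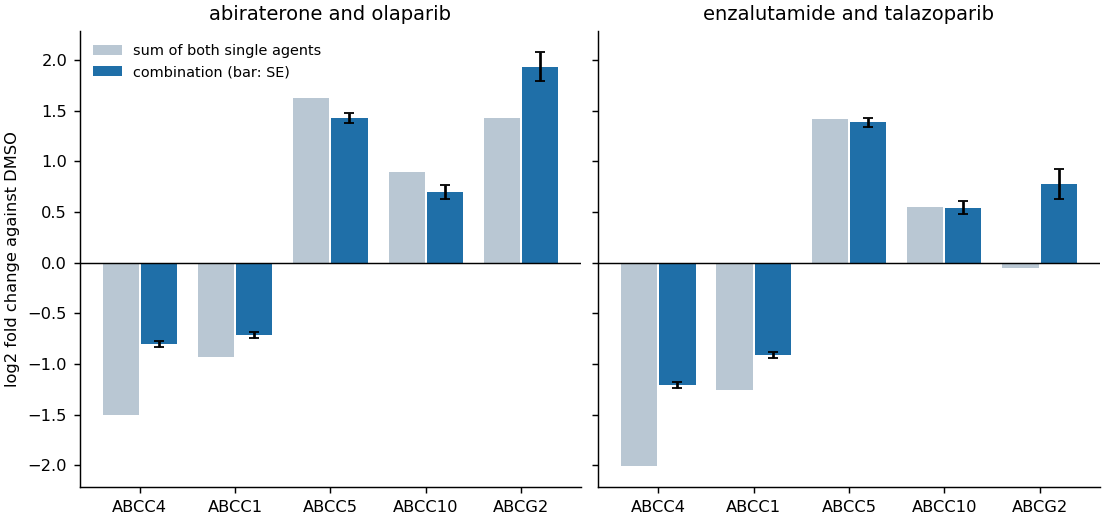
Log2 fold change against DMSO in each combination (dark bars, with the SE) beside the sum of the log2 fold changes of its agents alone (grey bars). For ABCC4 the dark bars end at -0.80 and -1.21 and the grey ones at -1.50 and -2.01, while ABCC10 in the enzalutamide and talazoparib pair reached 0.54 against a sum of 0.55.

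In the time course, ABCC5 and ABCC10 were highest at the higher dose of olaparib and the later day. At day 1, ABCC5 had 39.6, 41.4 and 42.8 CPM with DMSO, 44.9, 45.3 and 46.1 CPM at 1 µM and 60.4, 60.2 and 57.0 CPM at 5 µM. By day 5, these were 40.9, 43.1 and 40.8 CPM, 57.1, 58.4 and 56.5 CPM, and 94.7, 90.5 and 99.6 CPM. At either day the groups of ABCC5 were apart from each other at every dose step. Its log2 fold changes were 0.14 ± 0.036 at 1 µM and 0.52 ± 0.036 at 5 µM on day 1 (adjusted p = 0.00705 and 7.47e-15, edgeR) and 0.46 ± 0.035 and 1.19 ± 0.034 on day 5 (adjusted p = 1.21e-13 and 2.08e-27, edgeR). The call at 1 µM on day 1 was lost without DMSO replicate 1.

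ABCC10 had 12.6, 12.1 and 12.1 CPM with DMSO on day 1, 13.1, 13.7 and 13.3 CPM at 1 µM and 14.8, 14 and 14 CPM at 5 µM. On day 5 it had 12.8, 13.3 and 13.2 CPM with DMSO, 18.1, 19.1 and 18 CPM at 1 µM and 25.0, 26.6 and 27.6 CPM at 5 µM, again with no overlap between doses. The log2 fold changes were 0.12 ± 0.054 and 0.22 ± 0.054 on day 1 (adjusted p = 0.118 and 0.000937, edgeR) and 0.49 ± 0.051 and 1.02 ± 0.049 on day 5 (adjusted p = 2.61e-10 and 3.72e-20, edgeR). At 5 µM and day 5, ABCC10 was thus 2.02-fold and ABCC5 2.28-fold above DMSO.

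ABCG2 fell at the high dose and late time. On day 5 it had 87, 79 and 81 counts with DMSO (1.92, 2.14 and 2.08 CPM), 60, 58 and 57 counts at 1 µM (1.61, 1.57 and 1.59 CPM) and 19, 48 and 33 counts at 5 µM (0.532, 1.35 and 0.928 CPM). The 3 groups did not overlap, and the 5 µM libraries spread the most. The log2 fold changes were -0.36 ± 0.18 at 1 µM (adjusted p = 0.106, edgeR) and -1.12 ± 0.20 at 5 µM (adjusted p = 4.20e-06, edgeR). From 1 to 5 µM it fell by 0.76 on the log2 scale (adjusted p = 0.00160, edgeR), and by 0.47 without replicate 1 of 5 µM (adjusted p = 0.0418, edgeR). On day 1 the ABCG2 counts were 66, 75 and 56 with DMSO, 92, 79 and 98 at 1 µM and 92, 77 and 82 at 5 µM, so that olaparib lay on the opposite side of DMSO, with log2 fold changes of 0.38 ± 0.18 and 0.40 ± 0.18 (adjusted p = 0.157 and 0.0656, edgeR). The value at 5 µM and day 1 passed the threshold under total count scaling (0.45, adjusted p = 0.0375), with a filter at 1 CPM (0.42, adjusted p = 0.0480) and with only the compared groups in the fit (0.41, adjusted p = 0.0362), all in edgeR.

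ABCC1 and ABCC4 had the smallest fold changes against DMSO at each dose and day of the time course. On day 5, ABCC1 had 199, 193 and 196 CPM with DMSO, 209, 216 and 219 CPM at 1 µM and 244, 242 and 245 CPM at 5 µM. Its groups were apart, with log2 fold changes of 0.13 ± 0.026 and 0.31 ± 0.026 (adjusted p = 6.11e-05 and 2.65e-13, edgeR). On day 1, ABCC1 had log2 fold changes of 0.021 ± 0.026 and 0.047 ± 0.026 (adjusted p = 0.660 and 0.143, edgeR), and the second passed without replicate 3 of 5 µM (0.072, adjusted p = 0.0300), with a filter at 1 CPM (0.060, adjusted p = 0.0482) and under total count scaling (0.096, adjusted p = 0.00343). ABCC4 on day 5 had 711, 712 and 704 CPM with DMSO, 651, 648 and 645 CPM at 1 µM and 732, 750 and 733 CPM at 5 µM. The 1 µM group lay below DMSO and the 5 µM group above it, with log2 fold changes of -0.13 ± 0.020 and 0.059 ± 0.020 (adjusted p = 7.47e-07 and 0.00845, edgeR), but the second became -0.024 under total count scaling (adjusted p = 0.226, edgeR). On day 1, ABCC4 had 634, 596 and 615 CPM with DMSO and 594, 587 and 570 CPM at 1 µM, with a log2 fold change of -0.076 ± 0.020 (adjusted p = 0.00585, edgeR), and 0.016 ± 0.020 at 5 µM (adjusted p = 0.535, edgeR), which was 0.065 under total count scaling (adjusted p = 0.00235). The call at 1 µM was lost under total count scaling (-0.050, adjusted p = 0.0506), without DMSO replicate 1 (-0.053, adjusted p = 0.0847) and without replicate 3 of 1 µM (-0.059, adjusted p = 0.0722, edgeR).

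On day 1, 2 of 5 members passed at 1 µM (1 higher, 1 lower), beside 15.8% of all genes, and 2 passed at 5 µM (both higher), beside 45% of all genes. At 1 µM no member passed without DMSO replicate 1. On day 5, 4 of 5 passed at 1 µM (3 higher, 1 lower), beside 46.3%, and all 5 at 5 µM (4 higher, 1 lower), beside 68.2%. Between 5 and 1 µM at day 5, all 5 passed (4 higher, 1 lower), beside 53.6%. With DMSO alone, ABCC4 was higher on day 5 than on day 1 by 0.20 ± 0.020 on the log2 scale (adjusted p = 4.00e-10, edgeR), the only member of 5 to pass, beside 24.5% of all genes. On day 5 the 3 leukocyte markers summed to 5.66 to 6.42 CPM with DMSO, 15.2 to 16.7 CPM at 1 µM and 25.9 to 28.1 CPM at 5 µM, almost all from CD68, with PTPRC at 0 to 3 counts and CD3E at 0 or 1. On the same day the basal markers summed to 0.273 to 0.521 CPM with DMSO, 1.15 to 1.33 CPM at 1 µM and 1.26 to 1.84 CPM at 5 µM, and the endothelial markers to 10.5 to 10.7, 9.14 to 9.95 and 7.34 to 8.60 CPM. On day 1 the stromal markers summed to 12.1 to 12.5 CPM with DMSO, 14.5 to 15.1 CPM at 1 µM and 15.6 to 17.5 CPM at 5 µM, and the endothelial markers to 10.1 to 11.3, 12.9 to 13.8 and 13.4 to 15.6 CPM. In the same order, the basal markers on day 1 summed to 0.448 to 0.687, 0.414 to 0.494 and 0.316 to 0.388 CPM. The stromal markers on day 5 summed to 11.7 to 12.4, 13.3 to 13.8 and 12.1 to 12.6 CPM. The part of these markers in the time course results was not tested.

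**Figure D5:**
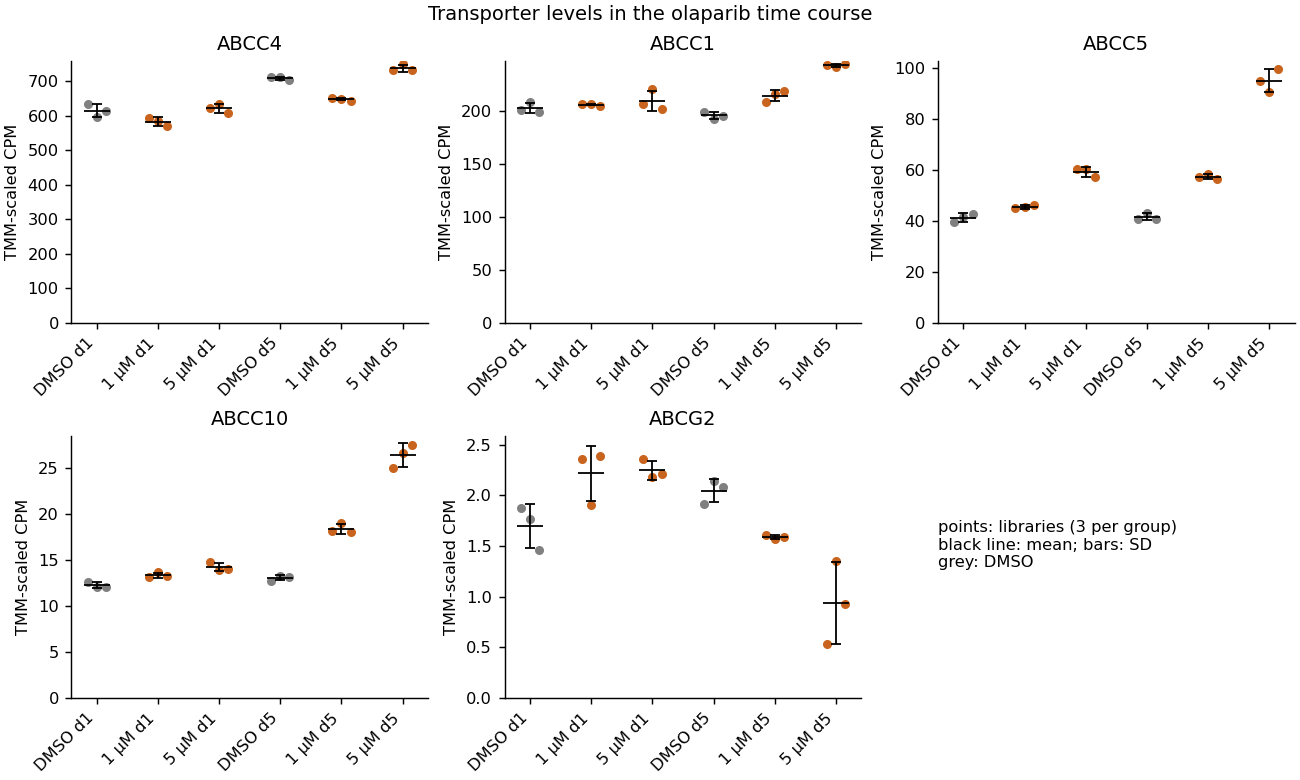
TMM-scaled CPM of the 5 tested transporters in the time course, with 1 point per library, a black line for the mean of 3 libraries and bars for the SD. ABCC5 and ABCC10 climb to means of 94.9 and 26.4 CPM at 5 µM and day 5, ABCG2 drops to 0.936 CPM there, and the difference of ABCC4 between 5 µM and DMSO at day 5 changes sign under total count scaling.

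Whether an olaparib effect differed between days was tested by an interaction. At 5 µM the effect was larger on day 5 than on day 1 by 0.67 ± 0.049 for ABCC5, 0.80 ± 0.073 for ABCC10 and 0.27 ± 0.037 for ABCC1 on the log2 scale (adjusted p = 2.11e-14, 8.33e-12 and 1.04e-07, edgeR), the last being 0.13 under total count scaling (adjusted p = 0.00277). For ABCG2 it was lower by -1.53 ± 0.27 (adjusted p = 6.80e-06, edgeR). ABCC4 had 0.042 ± 0.028 (adjusted p = 0.205, edgeR), which became -0.089 under total count scaling (adjusted p = 0.00243, edgeR), a scaling that moved the median of all genes by -0.13 in this comparison, and 0.064 without DMSO replicate 2 of day 1 (adjusted p = 0.0465, edgeR). At 1 µM the differences were 0.33 ± 0.051 for ABCC5, 0.37 ± 0.074 for ABCC10, 0.11 ± 0.037 for ABCC1 and -0.74 ± 0.26 for ABCG2 (adjusted p = 3.21e-06, 0.000148, 0.0205 and 0.0246, edgeR). The last value was not past the threshold without DMSO replicate 3 or olaparib replicate 1 or 3 of day 1, or without DMSO replicate 2 of day 5, and that of ABCC1 was not without DMSO replicate 2 of either day or olaparib replicate 3 of day 5. Without these libraries the values were -0.71, -0.70, -0.69 or -0.64 for ABCG2 and 0.089, 0.095 or 0.099 for ABCC1, which was 0.061 under total count scaling (adjusted p = 0.234, edgeR). ABCC4 had -0.054 ± 0.028 (adjusted p = 0.150, edgeR) and passed under total count scaling (-0.10, adjusted p = 0.00129) and without DMSO replicate 1 of day 1 (-0.078, adjusted p = 0.0237). Thus 4 of 5 members passed at 5 µM (3 higher, 1 lower), beside 54.9% of all genes, and 4 of 5 at 1 µM (3 higher, 1 lower), beside 29.8%.

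Olaparib at 1 µM for 5 days was measured in both experiments, which share no library. Side by side, the log2 fold changes of panel and time course were -0.19 and -0.13 for ABCC4, 0.13 and 0.13 for ABCC1, 0.37 and 0.46 for ABCC5, 0.55 and 0.49 for ABCC10, and -0.28 and -0.36 for ABCG2. The difference between experiments was -0.076 ± 0.028 for ABCC4 (adjusted p = 0.180, edgeR), and the other 4 had adjusted p-values of 0.487 to 0.944. None of the 5 members tested passed, beside 1.97% of all genes, and without DMSO replicate C of the panel ABCC4 did (-0.092, adjusted p = 0.0372, edgeR). Levels of DMSO libraries were not tested between the experiments, which were scaled separately.

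The lncRNA ENSG00000289887 lies on the opposite strand within ABCC4 (GRCh38 chromosome 13 from 95273963 to 95278207), and its exons overlap none of those of ABCC4. It was chosen after its values were seen. It had 79, 108 and 128 counts with DMSO, 16, 13 and 7 under abiraterone, 4, 8 and 3 under enzalutamide and 200, 197 and 206 under olaparib. The ARPi libraries lay below and the olaparib libraries above those of DMSO. Its log2 fold change in the panel was -3.04 ± 0.22 for abiraterone, -4.49 ± 0.26 for enzalutamide and 0.88 ± 0.17 for olaparib (adjusted p = 5.28e-14, 6.17e-17 and 7.02e-05, edgeR). At day 5 of the time course it had 144, 123 and 123 counts with DMSO, 259, 245 and 252 at 1 µM and 288, 296 and 311 at 5 µM, with log2 fold changes of 1.09 ± 0.10 and 1.38 ± 0.10 (adjusted p = 1.69e-11 and 6.70e-15, edgeR). At day 1 its log2 fold change was -0.11 ± 0.12 at 1 µM and 0.11 ± 0.12 at 5 µM (adjusted p = 0.651 and 0.521, edgeR). The lncRNA thus went in the direction of ABCC4 with ARPi, and in the opposite direction with olaparib at 1 µM for 5 days in both experiments. The library kit kept the strand, and the counter's strand setting is not given in the sources used here. The antisense transcript ABCC5-AS1 had at most 3 counts, and DLK2, opposite ABCC10, at most 7.

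Of the 40 other ABC family genes, 29 were tested in the panel and 28 in the time course. Under abiraterone 12 were higher and 10 lower (median log2 fold change 0.10), where 52.9% of all genes were called and their median was 0.00030. Under enzalutamide 12 were higher and 9 lower (median 0.0061), where all genes had 53.3% and 0.017. Under olaparib in the panel 9 were higher and 4 lower (0.056), where all genes had 35.6% and 0.015, and under talazoparib 5 and 4 (-0.0078), where they had 33.8% and 0.020. At day 5 of the time course 10 were higher and 9 lower at 1 µM olaparib (0.041), where all genes had 46.3% and -0.00075, and 17 and 10 at 5 µM (0.20), where they had 68.2% and -0.0083. These shares and medians of all genes also stand beside the 4 lists that follow, in the same 6 comparisons. ABCA1, which exports cholesterol to lipoproteins, had 98 to 100 counts with abiraterone, 68 to 84 with enzalutamide and 27 to 39 with olaparib, against 5 to 20 with DMSO. Its log2 fold changes were 3.26 ± 0.27, 2.67 ± 0.27 and 1.59 ± 0.29 (adjusted p = 8.88e-13, 1.85e-10 and 4.38e-05, edgeR). ABCG1, its partner in sterol export, rose with both ARPi (log2 fold changes of 2.01 ± 0.10 and 1.65 ± 0.10; adjusted p = 3.50e-18 and 1.06e-15, edgeR) and had -0.16 ± 0.12 with olaparib in the panel (adjusted p = 0.344, edgeR). It fell with talazoparib by 0.40 on the log2 scale (adjusted p = 0.00937, edgeR). At 5 µM olaparib ABCG1 rose, with 0.60 ± 0.15 on day 1 and 0.90 ± 0.13 on day 5 (adjusted p = 0.000843 and 1.34e-07, edgeR). ABCA12, a lipid transporter of the epidermis, rose with both ARPi (1.45 ± 0.13 and 1.12 ± 0.13; adjusted p = 1.18e-11 and 4.65e-09, edgeR) and at 5 µM olaparib on day 5 (1.27 ± 0.13; adjusted p = 7.68e-11, edgeR).

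Drug-metabolizing enzymes and their receptors (27 genes, 19 tested) had 9 higher and 4 lower members with either ARPi, 5 and 2 with olaparib in the panel, 6 and 2 with talazoparib, and, on day 5 of the time course, 7 and 3 at 1 µM and 13 and 4 at 5 µM. In the same order, counting each ARPi, the median log2 fold changes were 0.43, 0.40, 0.16, 0.31, 0.052 and 0.87. CYP1A1, an enzyme induced through the aryl hydrocarbon receptor, had 495 to 610 counts with abiraterone and 32 to 48 with DMSO, a log2 fold change of 3.92 ± 0.12 (adjusted p = 1.19e-24, edgeR). CYP1A1 also rose with enzalutamide (1.77), with olaparib in the panel (1.08) and with talazoparib (0.96). On day 5 of the time course it rose by 1.42 at 1 µM and 2.57 at 5 µM. CYP1A2 had 53 to 95 counts with abiraterone against 1 to 4 (4.84 ± 0.41; adjusted p = 5.14e-12, edgeR). CYP1A2 also rose with olaparib in the panel (3.06) and talazoparib (1.96), and had 0.69 ± 0.60 with enzalutamide (adjusted p = 0.390, edgeR). CYP3A5, a drug-oxidizing enzyme, had 236 to 254 counts with 5 µM olaparib on day 5 and 9 to 24 with DMSO, a log2 fold change of 4.04 ± 0.20 (adjusted p = 1.03e-19, edgeR). In the panel CYP3A5 rose with olaparib (2.68), talazoparib (2.52) and abiraterone (1.08).

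Of the 28 uptake carriers, 14 were tested in the panel and 15 in the time course. With abiraterone 4 were higher and 4 lower (median log2 fold change -0.024), with enzalutamide 3 and 4 (-0.064), with olaparib in the panel 6 and 3 (0.17) and with talazoparib 2 and 4 (0.013). On day 5 of the time course there were 4 and 4 at 1 µM (0.099) and 4 and 5 at 5 µM (0.12). The nucleoside carrier SLC29A1 had 800 to 836 counts with 5 µM olaparib on day 5 and 2626 to 3233 with DMSO, and fell by 1.63 on the log2 scale (adjusted p = 1.01e-31, edgeR). The peptide carrier SLC15A2 fell with abiraterone by 2.21 and with enzalutamide by 2.36, and had a log2 fold change of 0.89 ± 0.14 with olaparib (adjusted p = 1.19e-13, 1.69e-14 and 2.23e-06, edgeR). SLCO5A1, an organic anion transporter family member, had a log2 fold change of 1.78 ± 0.15 for abiraterone and 1.37 ± 0.15 for enzalutamide (adjusted p = 1.44e-12 and 9.94e-10, edgeR).

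Glutathione genes (23, of which 20 tested) supply the conjugates that ABCC1 and ABCC2 export. With abiraterone 7 were higher and 7 lower (median log2 fold change 0.014), with enzalutamide 8 and 6 (0.026), with olaparib in the panel 11 and 3 (0.17) and with talazoparib 10 and 3 (0.15). On day 5 of the time course there were 12 and 4 at 1 µM (0.15) and 12 and 6 at 5 µM (0.26). SLC7A11, the cystine importer, fell by 1.64 on the log2 scale with olaparib and by 1.89 with 5 µM olaparib on day 5 (adjusted p = 1.59e-11 and 2.69e-23, edgeR). GSTA1 and GSTA2 had log2 fold changes of 1.98 ± 0.10 and 1.26 ± 0.19 with abiraterone (adjusted p = 2.54e-18 and 1.09e-06, edgeR), and their split is uncertain because they are near-identical copies. Of 26 known transcriptional regulators of efflux pumps, 23 were tested, with 5 higher and 8 lower for abiraterone (median -0.036), 6 and 5 for enzalutamide (0.034), 9 and 6 for olaparib in the panel (0.022) and 6 and 6 for talazoparib (-0.0073). On day 5 of the time course there were 9 and 8 at 1 µM (0.0070) and 12 and 8 at 5 µM (0.060). JUN and FOXO3 had log2 fold changes of 1.64 ± 0.042 and 1.46 ± 0.029 with 5 µM olaparib on day 5 (adjusted p = 4.81e-29 and 2.20e-32, edgeR), and NFKB1 had 1.34 ± 0.044 with abiraterone (adjusted p = 7.65e-24, edgeR).

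Across the 13 group means, centred within each experiment on the log2 CPM scale, ABCC1 and ABCC4 had a Pearson r of 0.961, the highest of the 10 pairs of members, and ABCC5 and ABCC10 one of 0.612. ABCC1 and ABCG2 had the lowest, -0.685. Among 14227 genes, MLPH (0.991), ELOVL7 and FAM13A-AS1 were most like ABCC1, and MCCC2 (0.974), ACADL and DPP4 most like ABCC4. SEMA3F (0.993), LRRC8E and PLCD3 were most like ABCC5, and CCDC78 (0.993) and HDAC10 were among those most like ABCC10. UTRN (0.942), RBPMS and TTLL7 were most like ABCG2. These are descriptions over 13 points that share libraries and depth, and the groups with an ARPi lie apart from the others.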

How the data were processed

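RNA-seq counts of 39 C4-2B libraries were used. The authors trimmed the paired reads (Trim Galore), aligned them to GRCh38 (STAR) and quantified genes with Salmon on GENCODE. The deposited values are estimated counts per gene, not normalized, and all of them are whole (how they were rounded is not given in the sources used here). Symbols and coordinates came from GENCODE release 44. Counts were TMM-scaled, filtered (filterByExpr by group) and tested in edgeR 4.0.16 (R 4.3.3) by the quasi-likelihood test without covariates, with all groups of an experiment in 1 fit and Benjamini-Hochberg adjustment over 18625 genes in the panel, 18502 in the time course and 17833 in a joint fit of 12 libraries. Scripts were tested on simulated data. The members and lists were chosen with earlier results of these data known. Beside the members, the named genes were up to 3 per list with the largest change (higher group averaging 100 counts or more), the treatment checks, and the 3 genes most like each member, of which 1 is not reported here. Replicate libraries differed by more than sampling noise (chi-square per degree of freedom 2.11 to 5.63). Alternatives were RLE and total count scaling, other filters, DESeq2 1.42.0, a replicate block, fits of the compared groups only and leaving out libraries. Precision is given as SD or SE.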

Additional observations from a re-analysis of the deposited data

Results flagged for a closer look

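Interactions past the threshold in edgeR's quasi-likelihood test are listed here because an effect differed between settings. When olaparib was combined with abiraterone, the log2 departure from the sum of both agents was 0.70 for ABCC4, 0.22 for ABCC1 and -0.20 for ABCC5. For talazoparib with enzalutamide it was 0.80 for ABCC4, 0.34 for ABCC1 and 0.83 for ABCG2. Between day 5 and day 1, the effect of olaparib at 1 µM differed by 0.33 for ABCC5, 0.37 for ABCC10, 0.11 for ABCC1 and -0.74 for ABCG2 on the log2 scale. At 5 µM these differences were 0.67 for ABCC5, 0.80 for ABCC10, 0.27 for ABCC1 and -1.53 for ABCG2. For ABCG2 at 5 µM the log2 fold change was 0.40 on day 1, which did not pass the threshold (adjusted p = 0.0656, edgeR), and -1.12 on day 5.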

How the results depend on the processing

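Depth limited ABCB1, ABCC2 and ABCC3, which had at most 2, 14 and 8 counts in a library. The number of members called was within 1.5 times the reported one in 136 of 139 alternatives other than leaving out a library. The exceptions were olaparib on day 1: at 1 µM 1 member passed under total count scaling (ABCC4 lost), and at 5 µM 5 passed under that scaling and 4 with a filter at 1 CPM. Leaving out 1 library gave 0 to 2 members for 1 µM on day 1 (0 without DMSO replicate 1), 2 to 5 for the difference of 1 µM between days (2 without DMSO replicate 2 of day 5) and 0 to 1 between experiments (ABCC4 without DMSO replicate C). Under total count scaling ABCC4 turned to -0.024 for 5 µM on day 5 and to -0.089 for its difference between days, and its level at 5 µM and day 5 was 98.3% of DMSO. The departure of ABCC5 for abiraterone and olaparib was lost under total count scaling (-0.19, adjusted p = 0.0718, edgeR), a filter at 1 CPM, a fit of only the compared groups and without 7 single libraries (abiraterone replicate A, olaparib replicates B and C, DMSO replicates B and C, and replicates A and B of the combination), with values of -0.20 to -0.15. The cause was not tested. The 30 same-number pairs correlated at -0.133 to 0.116. Pairs of different numbers were not computed, so whether replicate numbers pair the samples is not known. With a replicate block, 5 members passed for abiraterone and 4 for enzalutamide against DMSO, as without it, and it changed no count of members called.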
